A study of Mus musculus with 24 samples.

Results

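The complement system and the coagulation cascade are chains of plasma proteases, cofactors and inhibitors, most of which are made by hepatocytes. The transcripts of these proteins were followed in mouse liver RNA sequencing of a cachexia experiment. A list of 46 gene symbols was matched to the gene identifiers of the deposited table through GENCODE M21, and 45 were found among the 22392 genes listed. Klkb1, the gene of plasma prekallikrein, was not matched and was not analysed here. The 45 genes comprised 24 of complement and 21 of coagulation, anticoagulation and fibrinolysis, and all 45 passed the filter on low values (a mean normalised count of at least 10).

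The livers came from 24 mice of the CD2F1 strain, the F1 hybrid of BALB/c and DBA/2, with 8 mice in each of 3 groups. CT mice received a sham injection and carried no tumour. C26 mice were injected with C26 cells, a mouse colon carcinoma that causes wasting, and were otherwise untreated. C26-CHO mice were injected with the same cells and ate a diet with 2% cholestyramine by weight, a bile acid binding resin that stays in the gut, from day 1 to day 10 after the cells were injected. The labels state no sex, age, tumour weight or food intake. DBA/2 is known for an Hc allele that yields no secreted C5, so by descent each mouse of the 3 groups would carry 1 such allele.

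Complement is started by antibody-bound C1 (classical pathway), by mannose-binding lectins on sugars (lectin pathway) or by spontaneous turnover of C3 (alternative pathway). All of them meet at C3, the central component, and end in the membrane attack complex built from C5 to C9. In coagulation, the tissue factor and contact routes meet at factor X and thrombin, which turns fibrinogen into fibrin. Antithrombin, the protein C system and tissue factor pathway inhibitor limit thrombin, and plasmin dissolves the clot. In the liver many of these genes are textbook acute phase genes, whose transcripts rise or fall in inflammation.

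Before the comparisons, 1 library needs naming. On the leading principal component over 14040 tested genes (71.9% of the variance), CT livers scored from -83.15 to -75.36 and C26 livers from 28.81 to 54.62, and 7 of the C26-CHO livers from 22.32 to 50.48. C26-CHO 1 scored -13.41, between the CT and C26 livers. It lay outside the range of the other 7 C26-CHO mice for 25 of the 45 genes. Of the 29 genes called higher in C26 than in CT it was below the other 7 for 18, and of the 8 called lower it was above them for 5. The shares over all tested genes are not given here, so these counts cannot be taken as particular to the 45 genes. The call counts and leading differences of this group are also given without it. Recovered reads ran from 19.9 to 30.5 M per library.

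Liver transcripts of complement and coagulation genes were higher in C26 mice than in CT mice for most of the list, with C3, Cpb2, Serping1, Mbl1, Pros1, Vtn and Kng1 among the larger rises, but members of 1 complex or 1 pathway often moved apart. In C26 against CT, 29 of 45 genes were called higher (33.3% of all tested genes were), 8 were called lower (32.9% of all tested genes were) and 8 were not called. A gene was called when its limma adjusted p lay under 0.05. The median log2 difference of the 45 genes was 0.47, against 0.01 over all 14040 tested genes. At least 2-fold rises were called for 12 genes (9.11% of all tested genes) and at least 2-fold falls for 2, Mbl2 and C8g (8.26% of all tested genes). The ranges of the 8 C26 and 8 CT livers did not overlap for 24 genes on the higher side (16.9% of all tested genes) and for 5 on the lower side (18% of all tested genes).

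These differences are relative to the authors' size factors. Scaling by total reads instead moved the median log2 difference of all tested genes by -0.34 and turned 4681 higher and 4624 lower calls over all genes into 2347 and 8178. Among the 45 genes it gave 23 higher and 17 lower calls, and quantile normalisation gave 34 higher and 4 lower. The share of a library's reads does not depend on size factors. The 45 genes took 3.12% ± 0.0964 of the reads in CT, 6.32% ± 0.141 in C26 and 6.36% ± 0.261 in C26-CHO (SD, n = 8 each), or 6.45% ± 0.0990 without C26-CHO 1 (n = 7). The complement genes took 1.74% ± 0.0586 in CT and 4.44% ± 0.127 in C26, and the coagulation and fibrinolysis genes 1.38% ± 0.0451 and 1.88% ± 0.0461. C3 alone went from 0.745% ± 0.0774 to 2.94% ± 0.117 of the reads, while Alb, the albumin gene, went from 5.19% ± 0.307 to 0.991% ± 0.189. The ranges of CT and C26 did not overlap for any of these shares.

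**Figure D1:**
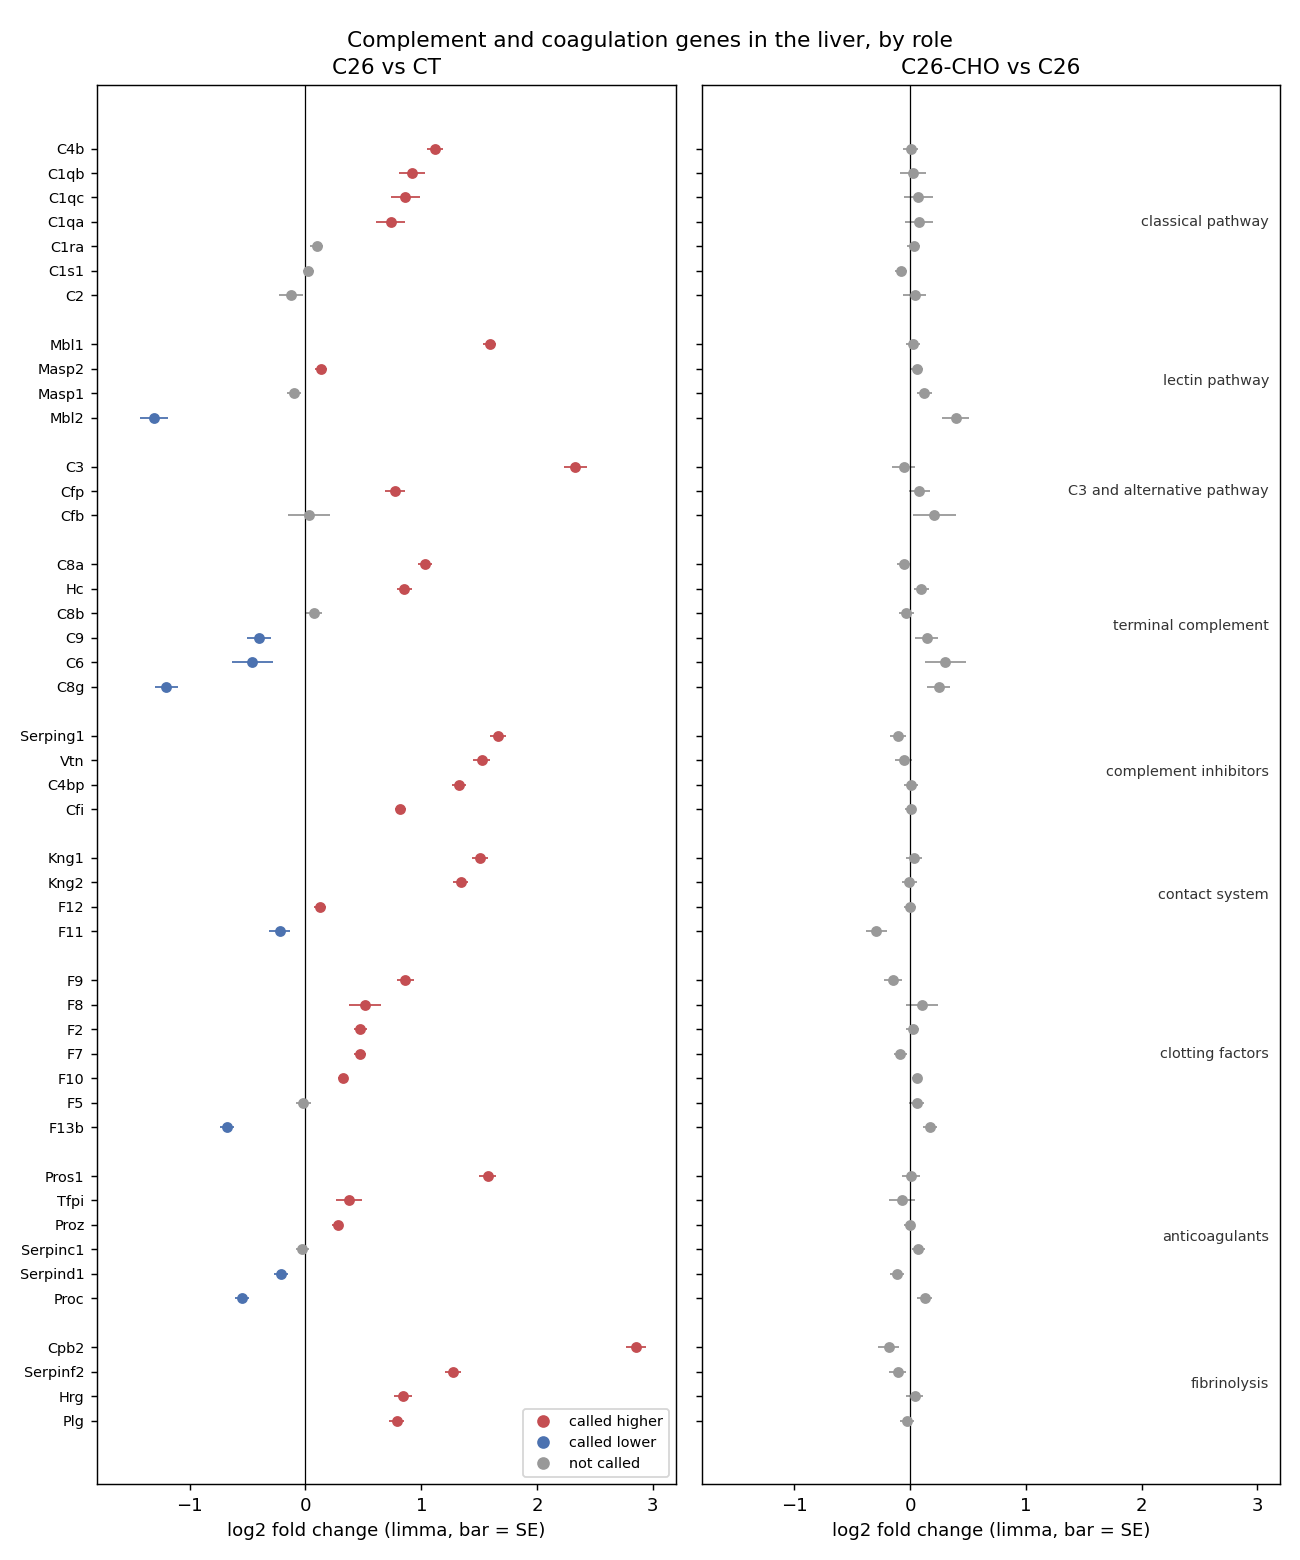
Log2 fold change of each of the 45 genes, grouped by role, in C26 against CT (left) and C26-CHO against C26 (right). Points are limma estimates and bars their SE; red marks genes called higher, blue called lower and grey not called. On the left 29 genes are red and 8 blue, and on the right all 45 are grey.

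Promoters are shown for the 4 genes with the largest rises in C26 against CT among those matched to a promoter sequence. RefSeq promoter sequences (GRCm38.p6) were found for 35 of the 45 genes, and the 250 bases before the transcript start were searched on both strands. The sequences below run 5′ to 3′ on the strand of the gene, and capitals mark a match to 1 of the motifs searched. They lie at chr14:75242037-75242286 (plus strand) for Cpb2, chr17:57228137-57228386 (minus strand) for C3, chr14:41151206-41151455 (plus strand) for Mbl1 and chr16:62854057-62854306 (plus strand) for Pros1.
Cpb2: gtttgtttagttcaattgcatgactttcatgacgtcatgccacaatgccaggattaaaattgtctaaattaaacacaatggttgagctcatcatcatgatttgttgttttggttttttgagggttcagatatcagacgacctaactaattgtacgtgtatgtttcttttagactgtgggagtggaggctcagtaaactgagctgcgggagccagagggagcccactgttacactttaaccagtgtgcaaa
C3: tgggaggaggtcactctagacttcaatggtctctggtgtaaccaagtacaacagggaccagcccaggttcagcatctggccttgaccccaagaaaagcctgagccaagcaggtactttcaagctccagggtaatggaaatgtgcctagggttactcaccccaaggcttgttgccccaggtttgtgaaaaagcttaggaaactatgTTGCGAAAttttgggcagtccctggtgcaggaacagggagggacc
Mbl1: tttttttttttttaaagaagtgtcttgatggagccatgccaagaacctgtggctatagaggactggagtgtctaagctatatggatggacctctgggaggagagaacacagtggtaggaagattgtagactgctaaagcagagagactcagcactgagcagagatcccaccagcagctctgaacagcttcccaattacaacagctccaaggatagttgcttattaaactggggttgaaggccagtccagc
Pros1: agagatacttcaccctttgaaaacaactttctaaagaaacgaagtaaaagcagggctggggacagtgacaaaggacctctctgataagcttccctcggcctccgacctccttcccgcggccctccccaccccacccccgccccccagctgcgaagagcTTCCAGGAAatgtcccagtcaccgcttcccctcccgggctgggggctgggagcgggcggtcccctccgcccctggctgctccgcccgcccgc

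The C3 window held a C/EBP motif match (TTGCGAAA, 45 to 38 bases before the start), and the Pros1 window a STAT motif match (TTCCAGGAA, 92 to 84 bases before the start). The windows of Cpb2 and Mbl1 held none of the motifs searched. The STAT motif TTCNNNGAA was found in 4 of 35 members (C8a, Masp2, Pros1 and F9) and in 7.02% of the 32851 promoters of this length. The C/EBP motif TTGCNNAA was found in 7 of 35 (9.56% of all promoters) and the NF-kB motif GGNNTTTCC in 0 of 35 (4.93%). Of the hepatocyte motifs, the HNF1 half-site GTTAAT was found in 9 of 35 (6.43%) and the HNF4 motif CAAAGTNCA in 1 of 35, F9 (1.19%). A member was counted when any of its promoters held the motif, while the percentages are over single promoters, so the 2 are not fully alike. No printed window held more than 1 match, so no matches overlap. A match describes the letters of the window only.

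In the classical pathway, the 3 chains of C1q and C4b rose in C26 livers, while the C1 proteases and C2 did not pass the test. C4b (ENSMUSG00000073418, chr17:34728380-34743882), whose product is split to build the C3 convertase, ran from 26154 to 36282 normalised counts in CT (median 29140), from 60884 to 75354 in C26 (median 64602) and from 60148 to 72393 in C26-CHO (median 64663). Every C26 and C26-CHO liver lay above every CT liver. The log2 difference of C26 from CT was 1.12 ± 0.0673 (SE, limma adjusted p = 1.91e-13). The recognition chains C1qa, C1qb and C1qc rose by log2 0.73 to 0.92, from means of 722, 524 and 555 to 1192, 984 and 994 normalised counts. Their genes lie side by side on chromosome 4. C1ra (log2 0.10, limma adjusted p = 0.165) and C1s1 (0.03, limma adjusted p = 0.662), the proteases that C1q activates, and C2 (-0.13, limma adjusted p = 0.275), which they cut, were not called. Under total-read scaling all 3 were called lower, at -0.25, -0.32 and -0.47, and under quantile normalisation C1ra and C1s1 were called higher, at 0.40 and 0.36. C4b and C4a, C1ra and C1rb, and C1s1 and C1s2 are close copies, so reads could have been divided between them in counting.

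C1q chains, and properdin (Cfp), are made by macrophages rather than hepatocytes. In whole liver more cells of a type and more RNA per cell cannot be told apart. All 10 Kupffer cell and macrophage markers were detected, and 9 of 10 were called higher in C26 (33.3% of all tested genes were). Their summed level ran from 4742 to 6832 in CT, 9187 to 11949 in C26 and 8885 to 15225 in C26-CHO. None of the 10 was listed at 0 in every mouse of a group. Within a mouse the ratio of C1qa to Csf1r, a macrophage receptor, had a median of 0.697 in CT (0.628 to 0.834) and 0.865 in C26 (0.761 to 0.957), and the ranges overlap. For C1qa to Clec4f the medians were 0.391 and 0.480, with overlapping ranges. These ratios depend on the marker chosen. The means of Cd5l (1377 in CT, 3138 in C26) and Cd163 (499 and 1799) rose by a larger fold than that of C1qa. The part of the macrophage markers in the C1q and Cfp results was not tested.

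In the lectin pathway the paired mannose-binding lectins moved in opposite directions. Mbl1 (ENSMUSG00000037780, chr14:41151458-41159601) ran from 2396 to 2954 normalised counts in CT (median 2629), from 7064 to 8572 in C26 (median 8036) and from 7079 to 9067 in C26-CHO (median 8275). Mbl2 (ENSMUSG00000024863, chr19:30232942-30239687) ran from 5559 to 7165 in CT (median 6264), from 2121 to 3234 in C26 (median 2600) and from 2578 to 5259 in C26-CHO (median 3249). No tumour-bearing liver reached the CT range for either gene, with Mbl1 above it and Mbl2 below it. Mbl1 rose by log2 1.59 ± 0.0601 (limma adjusted p = 1.41e-17) and Mbl2 fell by 1.31 ± 0.12 (limma adjusted p = 4.35e-10). The ratio of Mbl1 to Mbl2 within a mouse is not changed by a scaling factor per library. It had a median of 0.431 in CT (0.345 to 0.466) and 3.13 in C26 (2.39 to 4.00). Of the lectin-associated proteases, Masp1 was not called (log2 -0.10, limma adjusted p = 0.154), but was called lower under total-read scaling, at -0.45. Masp2 was called higher by log2 0.14 (limma adjusted p = 0.0236), but was called lower under total-read scaling, at -0.21 (limma adjusted p = 0.00082). Of the exon bases of Masp2, 54.9% overlap Tardbp on the opposite strand, itself higher by 0.27.

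C3 was the most abundant of the 45 transcripts per exon length. With the authors' size factors it also had the largest rise among the 24 complement genes of the list. C3 (ENSMUSG00000024164, chr17:57203970-57228136) ran from 131649 to 173811 normalised counts in CT (median 141149), from 703032 to 790229 in C26 (median 736164) and from 499242 to 807085 in C26-CHO (median 746683). The lowest C26-CHO value is C26-CHO 1, and even this liver lay far above every CT liver. C3 rose 5.04-fold in C26 (95% interval 4.36 to 5.82), a log2 difference of 2.33 ± 0.102 (limma adjusted p = 2.96e-16). The size of this rise depended on the scaling. The log2 difference of C3 was 1.99 under total-read scaling and 0.70 under quantile normalisation. The latter lay below that of several other complement genes, such as Mbl1 (1.87) and Serping1 (1.86). Cfp, which stabilises the alternative convertase, rose by log2 0.77 ± 0.0886 (limma adjusted p = 2.62e-08), from 276 ± 43.3 to 469 ± 42.8 normalised counts. Cfb, the protease of that convertase, was not called, at 121 ± 31.1 normalised counts in CT and 127 ± 39.3 in C26 (log2 0.03, 95% interval -0.34 to 0.41, limma adjusted p = 0.886). A gene model on the same strand, Gm20547, shares 79.5% of the exon bases of Cfb and 42.8% of those of C2. Gm20547 was not analysed here, and the part of the shared bases in the low counts of Cfb and C2 was not tested.

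The terminal components split. Hc (C5) and C8a rose, C6, C8g and C9 fell, and C8b was not called, so the 3 chains of the C8 protein went 3 different ways. C8a (ENSMUSG00000035031, chr4:104815679-104876398) ran from 16341 to 22092 normalised counts in CT (median 19007), from 37477 to 39843 in C26 (median 39395) and from 32971 to 40810 in C26-CHO (median 38345). C8g (ENSMUSG00000015083, chr2:25498651-25501719) ran from 5161 to 6551 in CT (median 5714), from 2056 to 2988 in C26 (median 2468) and from 2496 to 4294 in C26-CHO (median 2757). The ranges of CT and C26 did not overlap for either gene. C8a rose by log2 1.03 ± 0.0607 (limma adjusted p = 1.16e-13), C8g fell by 1.20 ± 0.0975 (limma adjusted p = 5.07e-11), and C8b differed by 0.07 (95% interval -0.07 to 0.21, limma adjusted p = 0.374), but was called lower under total-read scaling, at -0.28, and higher under quantile normalisation, at 0.42. C8a and C8b lie 11.1 kb apart on chromosome 4. Within a mouse the ratio of C8a to C8g had a median of 3.48 in CT (2.49 to 4.25), 16.1 in C26 (13.2 to 18.7) and 13.9 in C26-CHO (7.68 to 15.8), and that of C8a to C8b 2.25 in CT (1.97 to 2.41) and 4.34 in C26 (3.94 to 4.73).

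Hc rose by log2 0.85 ± 0.0658 (limma adjusted p = 1.87e-11), from 11152 ± 1098 to 20123 ± 1470 normalised counts. C9, the pore-forming component, was called lower by log2 -0.40 ± 0.0997 (limma adjusted p = 0.000968), and C6, which joins C5b, by -0.46 ± 0.176 (limma adjusted p = 0.0244). C6 was also the most variable of the 45 genes among CT mice, with a coefficient of variation of 30%. The C6 call was lost without CT 6 or without CT 8, and the calls of C6 and C9 were lost under quantile normalisation.

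All 4 complement inhibitors were called higher (33.3% of all tested genes were). Serping1 (ENSMUSG00000023224, chr2:84765387-84775444), the C1 inhibitor, which also blocks factor XII and kallikrein, ran from 9245 to 12542 normalised counts in CT (median 10710), from 31004 to 36621 in C26 (median 34244) and from 24896 to 35870 in C26-CHO (median 32609). Its lowest tumour-bearing liver was C26-CHO 1, which still lay above all CT livers. Serping1 rose by log2 1.67 ± 0.0692 (limma adjusted p = 1.11e-16). Vtn, vitronectin, which blocks the membrane attack complex, rose by log2 1.52, C4bp, which binds C4b, by 1.33, and Cfi, the protease that inactivates C3b and C4b, by 0.82. The largest limma adjusted p of the 4 was 1.07e-13.

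**Figure D2:**
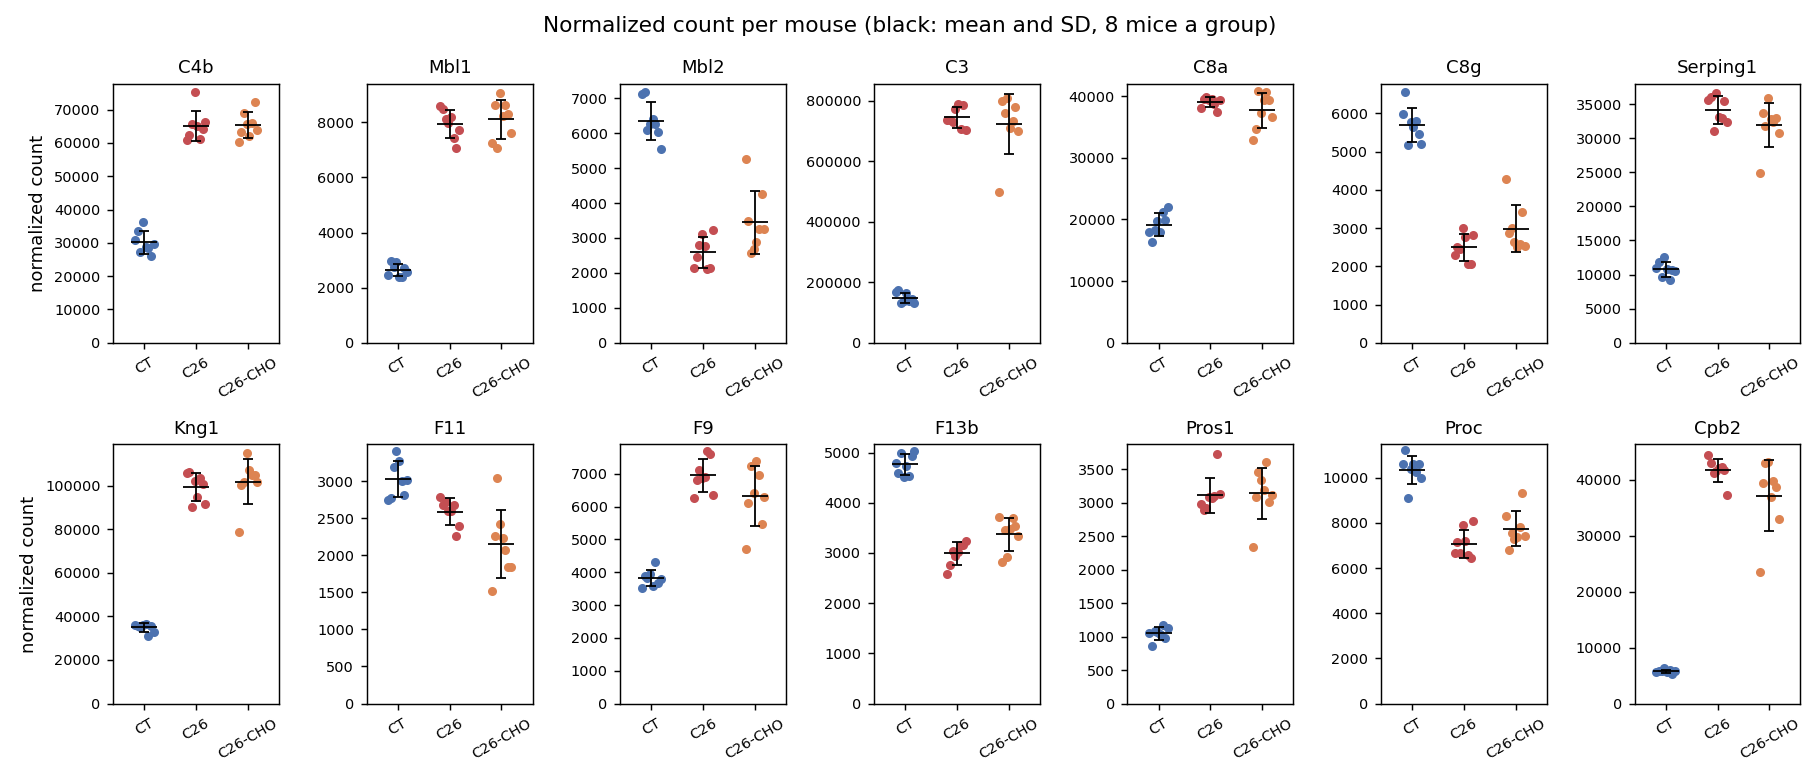
Normalised counts per mouse (vertical axes, from 0) for the 14 genes with the largest called rise or fall in each role. Points are mice, black bars the mean and SD over 8 mice of CT (blue), C26 (red) and C26-CHO (orange). For 13 of the 14 genes the CT and C26 mice do not overlap, and for F11 they do.

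In the contact system the kininogens rose, and the analysed proteases F11 and F12 moved little with the authors' size factors. Kng1 (ENSMUSG00000022875, chr16:23057865-23082078), the cofactor that carries bradykinin, ran from 31139 to 36329 normalised counts in CT (median 35657), from 90423 to 106390 in C26 (median 101434) and from 78930 to 114788 in C26-CHO (median 103151). All C26 and C26-CHO livers were above all CT livers. Kng1 rose by log2 1.51 ± 0.0686 (limma adjusted p = 6.96e-16) and its copy Kng2 by 1.34 ± 0.0635 (limma adjusted p = 1.53e-15). Their near-identical sequence leaves the division of reads between them uncertain. F11 (ENSMUSG00000031645, chr8:45241174-45262031), factor XI, ran from 2746 to 3402 in CT (median 3007), from 2255 to 2791 in C26 (median 2640) and from 1525 to 3040 in C26-CHO (median 2152), and the ranges overlap. F11 was called lower by log2 -0.22 ± 0.0929 (limma adjusted p = 0.037), a difference that was 0.00 under quantile normalisation and -0.57 under total-read scaling. The F11 call was lost without CT 3, CT 4, CT 5, C26 7 or C26 8. F12, factor XII, was called higher by log2 0.13 (limma adjusted p = 0.0337), but was called lower under total-read scaling, at -0.22 (limma adjusted p = 0.00015). The higher call of F12 was lost without CT 3, CT 6, CT 7, CT 8, C26 4 or C26 8.

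Of the 7 clotting factors of the tissue factor route, the tenase and the common pathway, 5 were called higher (33.3% of all tested genes). None rose by 2-fold, and 1, F13b, was called lower (32.9% of all tested genes). F9 (ENSMUSG00000031138, chrX:59999464-60030759), factor IX, whose lack causes haemophilia B, ran from 3525 to 4303 normalised counts in CT (median 3798), from 6251 to 7686 in C26 (median 6892) and from 4697 to 7389 in C26-CHO (median 6363). F13b (ENSMUSG00000026368, chr1:139501702-139523752), the carrier subunit of fibrin-stabilising factor XIII, ran from 4518 to 5040 in CT (median 4763), from 2581 to 3229 in C26 (median 3031) and from 2824 to 3707 in C26-CHO (median 3469). F9 was above and F13b below the CT range in every tumour-bearing liver. F9 rose by log2 0.86 ± 0.0739 (limma adjusted p = 1.33e-10) and F13b fell by 0.68 ± 0.0581 (limma adjusted p = 1.43e-10). F2 (prothrombin) and F7 (factor VII) each rose by log2 0.47, and F10 (factor X) by 0.33. Under total-read scaling these differences were 0.13, 0.12 and -0.02. F5, the cofactor of factor X, was not called (log2 -0.02, 95% interval -0.16 to 0.12, limma adjusted p = 0.824), but was called higher under quantile normalisation, at 0.34, and lower under total-read scaling, at -0.36.

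F8, factor VIII, is made mainly by endothelium, and it was called higher by log2 0.51 ± 0.14 (limma adjusted p = 0.00226), from 321 ± 48.03 to 461 ± 83.2 normalised counts with overlapping ranges. The F8 call was lost under total-read scaling (0.17). Of 10 sinusoidal endothelium markers, 7 were called higher (33.3% of all tested genes) and 2 lower (32.9%) in C26. Their summed level ran from 6611 to 8624 in CT, 8406 to 10838 in C26 and 6670 to 10850 in C26-CHO, and none was listed at 0 in every mouse of a group. The ratio of F8 to Stab2, an endothelial receptor, had a median of 0.295 in CT and 0.300 in C26 with overlapping ranges. This ratio depends on the marker chosen. The markers Oit3 (446 to 609 in CT, 329 to 425 in C26) and Dnase1l3 (981 to 1358 and 715 to 876) fell while F8 rose. The part of the endothelial markers in the F8 and Tfpi results was not tested.

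The anticoagulants divided as well. Pros1 (ENSMUSG00000022912, chr16:62854307-62929346), protein S, the cofactor of activated protein C, ran from 852 to 1175 normalised counts in CT (median 1059), from 2890 to 3725 in C26 (median 3075) and from 2337 to 3605 in C26-CHO (median 3145). Proc (ENSMUSG00000024386, chr18:32123126-32139570), protein C itself, ran from 9093 to 11237 in CT (median 10492), from 6448 to 8066 in C26 (median 6902) and from 6803 to 9336 in C26-CHO (median 7471). Pros1 was higher in all tumour-bearing livers than in any CT liver, while Proc was lower than in any CT liver in all 8 C26 livers and in 7 of 8 C26-CHO livers. Pros1 rose by log2 1.57 ± 0.0744 (limma adjusted p = 1.5e-15) and Proc fell by 0.55 ± 0.0617 (limma adjusted p = 1.84e-08). The difference of Proc was -0.18 under quantile normalisation and -0.90 under total-read scaling. The ratio of Pros1 to Proc within a mouse had a median of 0.101 in CT (0.0758 to 0.120) and 0.432 in C26 (0.388 to 0.578). Tfpi, the tissue factor pathway inhibitor, was called higher by log2 0.37 ± 0.112 (limma adjusted p = 0.00525), a call lost under total-read scaling (0.03), and Proz, protein Z, by 0.28 ± 0.0456 (limma adjusted p = 7.4e-06), with -0.07 under total-read scaling. Serpinc1, antithrombin, was not called (log2 -0.03, 95% interval -0.14 to 0.09, limma adjusted p = 0.671), but was called lower under total-read scaling, at -0.37. Serpind1, heparin cofactor II, was called lower by log2 -0.21 ± 0.0589 (limma adjusted p = 0.00255), but was called higher under quantile normalisation, at 0.18 (limma adjusted p = 0.0135).

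The vitamin K dependent proteins (F2, F7, F9, F10, Proc, Pros1 and Proz), which need a carboxylation step before secretion, had 6 of 7 members called higher (33.3% of all tested genes), of which F10 and Proz fell below 0 under total-read scaling, and 1, Proc, called lower (32.9% of all tested genes). Their median log2 difference was 0.47.

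All 4 fibrinolysis genes were called higher (33.3% of all tested genes were), and Cpb2 had the largest rise of the 45. Cpb2 (ENSMUSG00000021999, chr14:75242287-75283555), thrombin-activatable fibrinolysis inhibitor, a carboxypeptidase that slows clot lysis and also inactivates bradykinin and complement anaphylatoxins, ran from 5293 to 6363 normalised counts in CT (median 5722), from 37156 to 44326 in C26 (median 41869) and from 23539 to 43105 in C26-CHO (median 38984). Every C26 and C26-CHO liver was above every CT liver. Cpb2 rose 7.24-fold (95% interval 6.40 to 8.19), a log2 difference of 2.86 ± 0.0868 (limma adjusted p = 1.53e-19). Plg, plasminogen, rose by log2 0.79 ± 0.0618, Serpinf2, antiplasmin, by 1.27 ± 0.0725, and Hrg, which binds plasminogen and heparin, by 0.84 ± 0.0751 (largest limma adjusted p of the 3, 2.71e-10). Within a mouse the ratio of Cpb2 to Plg had a median of 0.101 in CT (0.0934 to 0.109) and 0.437 in C26 (0.373 to 0.480), and that of Serpinf2 to Plg 0.261 and 0.357, with no overlap between CT and C26 for either.

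**Figure D3:**
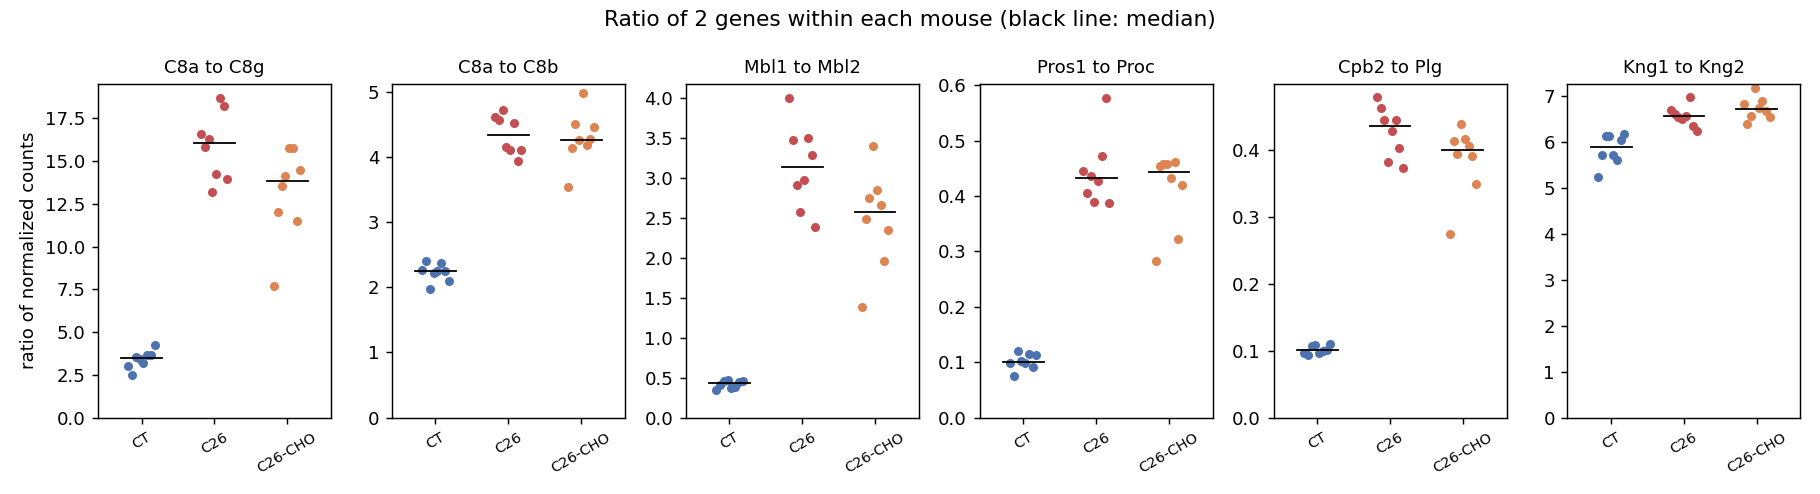
Ratio of the normalised counts of 2 genes within each mouse (vertical axes, from 0), which does not depend on a scaling factor per library. Quantile normalisation is not such a factor, and under it Kng1 rose by log2 1.35 and Kng2 by 1.59. Points are mice and black lines group medians. The CT and C26 mice do not overlap in any of the 6 ratios, with median C8a to C8g at 3.48 and 16.1 and median Kng1 to Kng2 at 5.88 and 6.55.

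Per kilobase of exon, the scale on which genes can be compared, C3 stood highest in CT with a mean of 28889.6 ± 3323 normalised counts per kb (SD, n = 8), followed by Vtn at 19192, Plg at 15266 and Kng1 at 10740. In C26 the order at the top was C3 at 144811, Vtn at 54930, Kng1 at 30572, Plg at 26330 and Cpb2 at 25558. Cpb2 was thus 5th of 45 in C26 and 18th in CT. The lowest levels in C26 were those of Tfpi (26.1), Cfb (44.9) and F8 (46.6 per kb). These levels are means over exon union length and carry no correction for isoforms or for bases shared with other genes. For Cfb, 79.5% of the exon bases are shared with Gm20547 on the same strand, and their part in its low level was not tested.

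**Figure D4:**
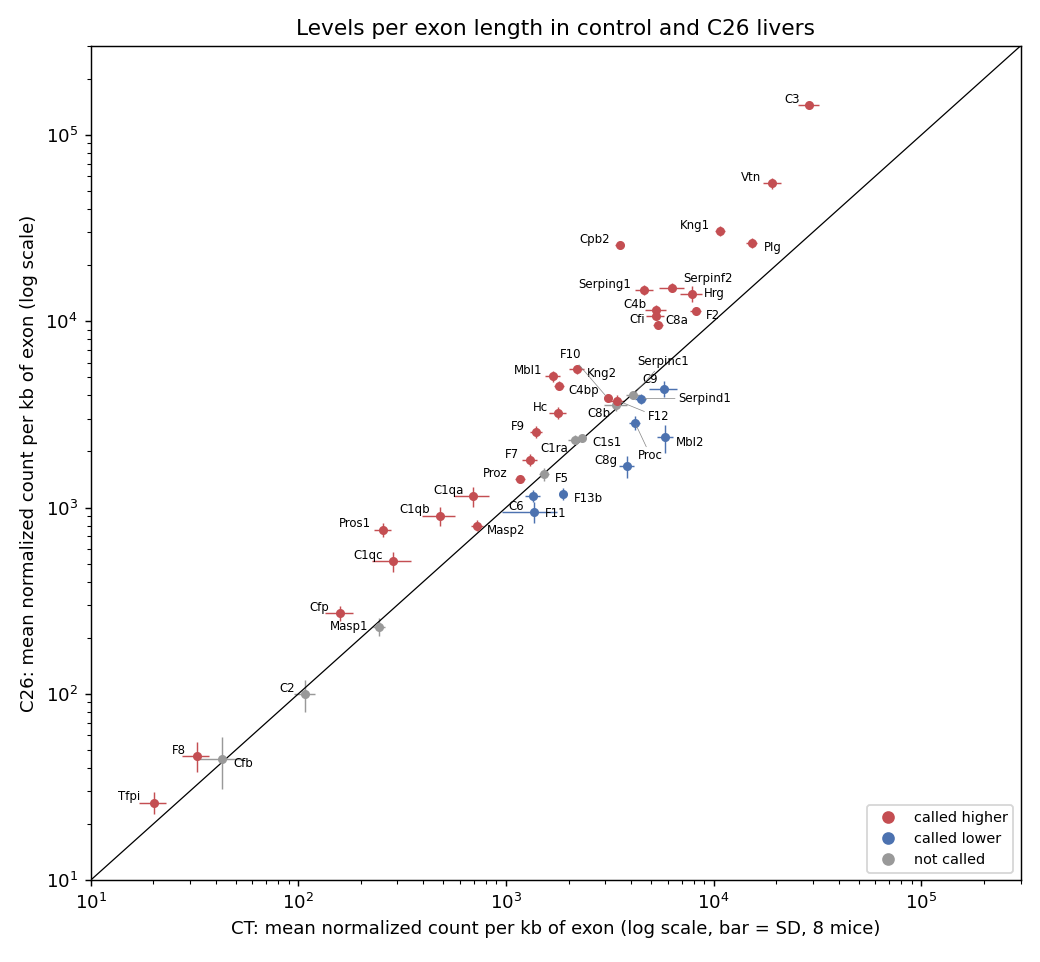
Mean normalised count per kb of exon in CT (horizontal, log scale) and C26 (vertical, log scale) for the 45 genes, with SD bars over 8 mice; the line marks equal levels. C3 lies at the top right and Tfpi at the bottom left, and Cpb2 lies farthest above the line.

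Position in the genome went with the direction in some neighbourhoods and not in others. Hrg, Kng2 and Kng1 lie within 200 kb of their neighbour on chromosome 16, and all of them rose. F7, F10 and Proz follow each other on chromosome 8 and were called higher, with F10 and Proz below 0 under total-read scaling. C8a rose beside C8b, which was not called, and C4b lies 112 kb from Cfb, which was not called. C1ra and C1s1 are neighbours on chromosome 6, and neither was called.

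Mice of a group differed little in these transcripts. The median coefficient of variation of the 45 genes was 8.51% in CT, 6.91% in C26 and 9.87% in C26-CHO (8.21% without C26-CHO 1), against 14.1%, 12.3% and 14.4% over all tested genes. All tested genes include every gene with a mean normalised count of at least 10. The spread was not compared with genes of matched level, so the lower values cannot be taken as particular to these pathways. The highest in each group were C6 at 30% in CT, Cfb at 30.9% in C26 and Mbl2 at 26.1% in C26-CHO. The lowest was C8a in C26, at 2.10%.

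Cholestyramine feeding was not followed by a called change in any of these transcripts. In C26-CHO against C26, 0 of 45 genes were called by limma (0.705% of all tested genes were), and 5 had an unadjusted p under 0.05 (13% of all tested genes). The edgeR quasi-likelihood test called 0 with TMM scaling (0.833% of all tested genes) and 0 with the authors' size factors (0.805%), and DESeq2 called 1, Mbl2 (2.5%). The C26-CHO and C26 ranges separated for 0 of 45 genes on the higher side (0.0997% of all tested genes) and 0 on the lower side (0.0356%). Over the 45 genes the fold differences had 95% intervals between 0.716 and 1.59. Without C26-CHO 1, limma again called 0 of the 45 (0.513% of all tested genes), and the fold differences themselves ran from 0.857 to 1.23.

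The 5 genes with an unadjusted p under 0.05 were Mbl2, F11, F13b, C8g and Cpb2, whose values by mouse are given above. Mbl2 was 1.31-fold of its C26 level in C26-CHO (95% interval 1.11 to 1.56), a log2 difference of 0.39 ± 0.12 (limma adjusted p = 0.119, and 0.30 on the log2 scale without C26-CHO 1). F11 was 0.818-fold (0.716 to 0.933, limma adjusted p = 0.139), and 0.857-fold without C26-CHO 1. Without C26-CHO 3, Mbl2 (limma adjusted p = 0.0474) and F11 (limma adjusted p = 0.0153) passed the threshold, so 1 mouse decided whether they were called. Their limma, edgeR and DESeq2 adjusted p ran from 0.0443 to 0.261 for Mbl2 and from 0.0153 to 0.285 for F11 over all alternatives. C8g was 1.19-fold (1.03 to 1.36), F13b 1.13-fold (log2 interval 0.05 to 0.29) and Cpb2 0.879-fold (0.777 to 0.995), with limma adjusted p of 0.254, 0.169 and 0.351. Without C26-CHO 1, C8g was 1.12-fold and F13b 1.11-fold, and the log2 difference of Cpb2 went from -0.19 to -0.10. For C3 the fold was 0.962 (0.832 to 1.11), for C4b 1.00 (0.911 to 1.10) and for Kng1 1.02 (0.926 to 1.13). Without C26-CHO 1 these 3 folds were 1.01, 1.01 and 1.06.

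C26-CHO against CT shares its control livers with C26 against CT, and so adds no independent control. The C26-CHO livers had 29 of 45 genes called higher (31.3% of all tested genes), 7 called lower (30.9%) and 9 not called, C6 among the latter (log2 -0.15, limma adjusted p = 0.459). Without C26-CHO 1, 30 were called higher and 7 lower. Under total-read scaling the calls of Masp2, F7, F8, F10, Proz and Tfpi in this comparison were lost. Quantile normalisation lost those of C9, Proc, Tfpi and Serpind1. The C26-CHO ranges did not overlap with CT for 24 genes on the higher side (12.1% of all tested genes) and 3 on the lower side (13.1%). Cpb2 differed from CT by log2 2.67 ± 0.0868, C3 by 2.28 ± 0.102 and Mbl1 by 1.62 ± 0.0601. On the lower side C8g differed by -0.96 ± 0.0975, Mbl2 by -0.91 ± 0.12 and F11 by -0.51 ± 0.0929. Without C26-CHO 1 these 6 log2 differences were 2.76, 2.35, 1.64, -1.03, -1.01 and -0.45.

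Of the other genes of these pathways, 56 were listed and 51 tested, and 29 were called higher (33.3% of all tested genes), 8 lower (32.9% of all tested genes) and 14 not called in C26 against CT. Several of the counts by list that follow are near these shares. The 51 genes had a median log2 difference of 0.32, against 0.01 over all tested genes. Among 10 tested complement components 5 were higher and 0 lower, with C7, a part of the membrane attack complex, at log2 2.72, Colec10, a collectin, at 0.91 and C4a at 0.83. Among 17 regulators and receptors 10 were higher and 3 lower. Itgam, a chain of complement receptor 3, differed by log2 3.00 and C5ar1, the C5a receptor, by 2.05, and on the lower side Susd4 by -2.75, Cd59a by -0.40 and Cfhr2 by -0.17.

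Among 17 tested coagulation genes outside the list 10 were higher and 4 lower. F13a1, the catalytic subunit of factor XIII, differed by log2 4.37, Serpina10, the protein Z dependent inhibitor of factor X, by 3.42 and Thbd, thrombomodulin, by 2.68. Serpina5, the protein C inhibitor, differed by -2.29, F3, tissue factor, by -1.47 and Vkorc1, which recycles vitamin K, by -0.89. Within a mouse the ratio of Serpina10 to its partner Proz had a median of 0.604 in CT (0.532 to 0.639) and 5.24 in C26 (4.83 to 5.89). Among 7 tested fibrinolysis genes 4 were higher and 1 lower, with Plaur, the urokinase receptor, at log2 2.5 and Plau, urokinase, at 1.08, and Serpine2, a protease inhibitor, at -0.80. In C26-CHO against C26, 0 of the 51 were called by limma (0.705% of all tested genes), and 6 had an unadjusted p under 0.05 (13% of all tested genes).

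Several of these genes are also expressed in leukocytes. F13a1 is in the list of 5 monocyte markers, of which 4 were tested and called higher (33.3% of all tested genes were). The summed level of the 5 ran from 94.8 to 167 in CT, 341 to 974 in C26 and 294 to 802 in C26-CHO. The summed level of 9 neutrophil markers, of which 2 were tested and called higher, ran from 8.87 to 26.5 in CT, 122 to 570 in C26 and 84.5 to 299.8 in C26-CHO. No marker of either list was listed at 0 in every CT or every C26 mouse, and their part in the results for F13a1, Itgam, C5ar1 and Plaur was not tested. The summed level of 8 hepatocyte markers, led by Alb, ran from 1510513 to 1762525 in CT and from 724344 to 928153 in C26. Of the 8, 3 were called higher (33.3% of all tested genes) and 4 lower (32.9%).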

How the data were processed

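Liver RNA was sequenced from 24 mice in 3 groups of 8. Per the submitters' processing notes, the tools were bcl2fastq 2.17, FastQC, Trimmomatic 0.38, STAR 2.6.1d and DESeq2 1.22.2, with the mouse genome build GRCm38. How reads were counted, with which annotation and whether by strand, is not given in the sources used here. The authors deposited a normalised signal, the gene count divided by a size factor of the library, called the normalised count here. Whole reads were recovered from it for 100% of values within 0.001 of a read. In C26-CHO 3 and C26-CHO 4 a read is worth 1.0099 and 1.004, so close to 1 that their recovery cannot be checked as independently as in the other 22 libraries; edgeR and DESeq2 used all 24.

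The test was limma 3.58.1 (R 4.3.3; lmFit, trended eBayes) for 14040 genes with a mean normalised count of at least 10, on log2(normalised count + 1), with all 24 libraries in a single fit of 3 groups and no covariate. Fold changes are on that scale and understate changes of low genes. Adjusted p values are Benjamini-Hochberg over all tested genes, two-sided, with a threshold of 0.05. edgeR 4.0.16 and DESeq2 1.42.0 were run on the recovered reads as alternatives. The scripts were tested on simulated data. Symbols, positions and exon lengths came from GENCODE M21, promoters from RefSeq.

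The genes and lists were chosen with earlier results of these data known. Every listed gene is accounted for by role. Values by mouse are given for the largest called rise and fall of each role, and the other pathway lists by up to 3 rises and 3 falls each, of which a few are not reported here. Some near-identical or overlapping genes may have lost reads in counting.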

Additional observations from a re-analysis of the deposited data

Results flagged for a closer look

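In 11 of 135 sets of 8 mice (45 genes in 3 groups), the highest or lowest mouse stood apart from the other 7 by more than Dixon's critical value of 0.526 allows; chance gives about 1 in 20 sets. C26-CHO 1 accounted for 6 of the 11. Among the genes called higher in C26 than in CT, it was the lowest C26-CHO mouse for C3 (499242 normalised counts, with the other 7 from 699795 to 807085), Serping1 (24896, others 30736 to 35870), Kng1 (78930, others 100282 to 114788), Kng2 (11583, others 15208 to 16018) and Pros1 (2337, others 3008 to 3605). It was the highest for C9 (18080, others 10443 to 12398), a gene called lower. This library also stood apart on the first principal component, at -13.41, and no cause was tested.

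The other 5 belong to 5 different mice. C4b was highest in C26 4 (75354, others 60884 to 66423) and Pros1 in C26 7 (3725, others 2890 to 3126). Tfpi was highest in C26 3 (185, others 123 to 150.2), Cfi in CT 4 (13495, others 11524 to 12381), and Cpb2 was lowest in C26 8 (37156, others 41154 to 44326).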

How the results depend on the processing

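In the comparisons with CT, scaling between libraries moved the counts of lower calls by over 1.5 times. The 8 lower calls of C26 against CT became 4 under quantile normalisation and 17 under scaling by total reads, and the 7 of C26-CHO against CT became 4 and 16. In C26-CHO against C26, where limma called 0, DESeq2 called 1 higher, and leaving out single mice gave 0 to 1 higher and 0 to 1 lower. Over all tested genes that comparison called 99, with 10 when only the groups compared were fitted, 324 with DESeq2 and 23 to 273 without single mice. Under scaling by total reads the log2 difference of C26 from CT changed sign for C1ra (-0.25), C1s1 (-0.32), Masp2 (-0.21), Cfb (-0.31), C8b (-0.28), F12 (-0.22), F10 (-0.021) and Proz (-0.068), and the calls of F8 and Tfpi were lost. Under quantile normalisation it changed sign for Masp1 (0.091), Cfb (-0.047), F11 (0.0028), F5 (0.34) and Serpind1 (0.18). Total-read scaling lowers all differences of this comparison together; for the other changes the cause was not tested. Without single mice, Cfb, which was not called, ranged from -0.048 to 0.19 and lay below 0 in 7 cases (without CT 3, CT 4, CT 5, C26 1, C26 3, C26 5 or C26 8), and F5 ranged from -0.044 to 0.00052, above 0 only without C26 1. The Masp2 call was lost without CT 6, C26 5 or C26 8, and that of F12 also without a filter on low values and when only the groups compared were fitted. Counts of higher calls in C26 against CT ran from 27 to 29 without single mice. Same-numbered mice of different groups deviated together weakly at most. Of 24 pairs, correlations ran from -0.204 to 0.255 with a median of 0.0771, 9 exceeded 0.1, and 5 were the best match of their number. A fit with the replicate number as a block gave 29 higher and 8 lower calls in C26 against CT, 0 and 0 in C26-CHO against C26, and 30 and 7 in C26-CHO against CT. Depth limits Tfpi and Cfb most, which rest on 974 and 1071 reads over the 8 CT livers.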
